A study of Mus musculus with 70 samples.

Results

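Pituitary RNA of hypothyroid *Thrb*-KO mice was compared with that of hypothyroid wild-type mice, to ask which genes depend on the thyroid hormone receptor TRβ when its ligand, triiodothyronine (T3), is low. The comparison covered all genes of the deposited RNA-seq table, 22835 gene symbols, each represented by its transcript with the highest mean over the 18 RNA libraries. It used 9 of the 70 samples of the series, 5 *Thrb*-KO and 4 wild-type libraries, and 13145 genes with more than 1 CPM (reads of the gene scaled to the same total in every library) in all 18 RNA libraries were tested.

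All animals were adult males on the C57BL/6J background, and each library pooled 3 frozen pituitaries. Both hypothyroid groups drank water with 0.05% methimazole (MMI), which blocks thyroid hormone synthesis, and 1% potassium perchlorate, which blocks the uptake of iodide by the thyroid gland, for 4 to 5 weeks. The *Thrb*-KO mice were homozygous for a constitutive disruption of *Thrb*, so they lacked TRβ in all tissues and during development, and differences arising outside the pituitary or before treatment cannot be told apart from differences arising in the adult gland. Hyperthyroid libraries of the same design, 4 wild-type and 5 *Thrb*-KO, came from mice that received the same MMI and perchlorate for 4 to 5 weeks with T3 at 0.5 µg/ml in the final week, and they served to ask how the same genes stood when T3 was high.

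TRβ is a nuclear receptor that binds DNA with or without T3, commonly at direct repeats of AGGTCA spaced by 4 bases (DR4) and as a heterodimer with retinoid X receptors. Without ligand it can recruit corepressor complexes that contain the histone deacetylase HDAC3, and with ligand it exchanges them for coactivators. In the pituitary it takes part in the negative feedback of T3 on thyrotropin (TSH), whose subunits are encoded by *Tshb* and *Cga*. The paper presumes that the other T3 receptor, encoded by *Thra*, compensates in *Thrb*-KO at some genes, such as *Tshb*.

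Recovered reads, summed over transcripts, ranged from 27583846 to 43561206 in hypothyroid wild type and from 29262689 to 55273749 in hypothyroid *Thrb*-KO. A read assigned to more than 1 transcript can count more than once in these sums. On this scale 3 reads corresponded to 0.0543 to 0.109 CPM. The libraries formed 2 sets that each held both genotypes. In replicates 1 and 2 the mitochondrial tRNA synthetase transcript *Lars2* stood at 2571 to 2899 CPM, and in replicates 3 to 5 at 53.2 to 95.1 CPM. Results were therefore also computed within each set. Within a group, libraries correlated (Pearson, log2(CPM + 1)) at 0.967 to 0.995 in wild type and 0.984 to 0.997 in *Thrb*-KO. The RNA came from whole tissue, in which fewer cells of a type and less RNA per cell cannot be told apart.

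The targeted gene itself gave no check of the genotype. *Thrb* (chromosome 14, 18493474 to 18870602, plus strand, mm9) read 239, 242, 249 and 297 CPM in the 4 hypothyroid wild-type libraries and 272, 295, 278, 271 and 239 CPM in the 5 *Thrb*-KO libraries. The groups overlapped. *Thrb* differed by 0.08 ± 0.13 (SE) on the log2 scale, with a limma adjusted p of 0.818. Both listed transcripts of *Thrb* behaved this way, with means of 245 and 257 CPM in wild type and 266 and 271 CPM in *Thrb*-KO. A disruption of part of the gene can leave most of the transcript in place, and a table with 1 value per transcript does not show which exons were read. With T3 the genotypes stood apart, at a mean of 104 CPM in wild type and 260.2 CPM in *Thrb*-KO. *Thra*, which encodes the other T3 receptor, was not called in hypothyroid animals at 76.4 ± 9.68 (SD, n = 4) CPM in wild type and 87.1 ± 5.35 (SD, n = 5) CPM in *Thrb*-KO. *Thra* differed by 0.19 ± 0.09 (SE) on the log2 scale, with a limma adjusted p of 0.286.

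Loss of TRβ changed gene expression in both directions at low T3, with more genes falling than rising. In *Thrb*-KO 133 genes were called higher (1.01% of the genes tested) and 264 were called lower (2.01%), where a call required an adjusted p under 0.05 and at least a 1.5-fold change on the log2(CPM + 1) scale, in limma over all 18 libraries. In all, 3.02% of genes were called. The median log2 difference was 0.76 for genes called higher and -0.78 for those called lower, beside 0.03 over all genes tested. Changes of at least 2-fold were seen in 28 genes called higher and 74 called lower, and of at least 4-fold in 1 and 6 genes. The wild-type and *Thrb*-KO libraries did not overlap for 130 of the 133 genes called higher and 252 of the 264 called lower, beside 7.60% (*Thrb*-KO above) and 6.70% (*Thrb*-KO below) of all genes tested, 14.3% in all. Each of the 397 called genes had the same sign within replicates 1 and 2 as within replicates 3 to 5, and 82 of the 133 higher and 166 of the 264 lower genes were called in each set on its own. The calls came from a fit of both sets together, so these counts describe the called genes and are not a separate test.

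**Figure D1:**
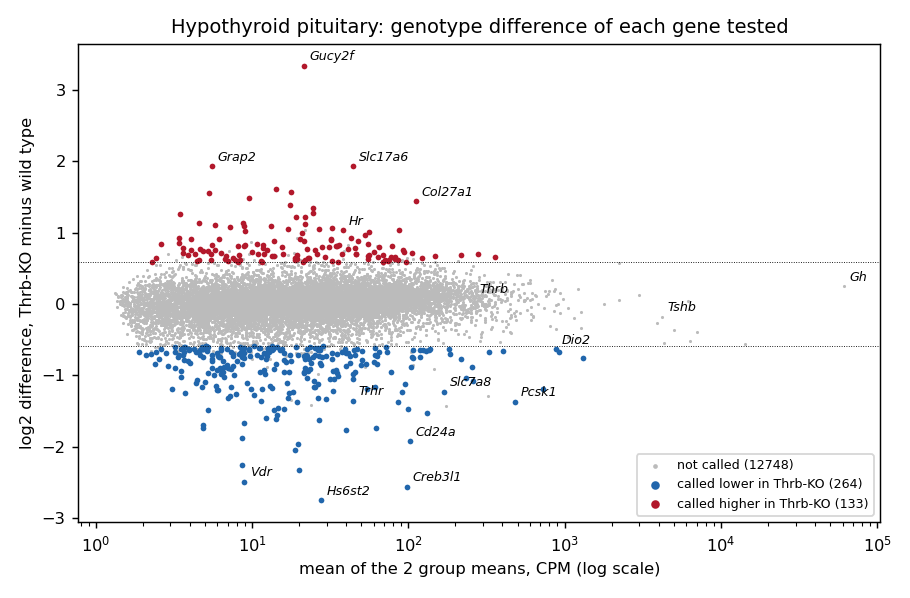
Each point is a gene tested, with the mean of the wild-type and Thrb-KO group means in CPM on a log axis and the log2 difference of Thrb-KO minus wild type in hypothyroid pituitary on the other. The 264 genes called lower reach -2.75 (Hs6st2), the 133 called higher reach 3.34 (Gucy2f), dotted lines mark a 1.5-fold change, and Thrb, Tshb and Gh lie among the genes that were not called.

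Among genes of the TSH axis, RNA of *Trhr* and *Dio2* was lower in *Thrb*-KO, while the hormone genes themselves were not called over all 18 libraries. *Trhr*, the receptor through which hypothalamic TRH drives the thyrotroph, read 63.8, 65.2, 62.9 and 64.5 CPM in wild type and 29.05, 27.6, 19.2, 21.5 and 26.5 CPM in *Thrb*-KO. Every *Thrb*-KO library lay below every wild-type library, and the group mean fell from 64.1 ± 0.997 (SD, n = 4) to 24.8 ± 4.21 (SD, n = 5) CPM. *Trhr* differed by -1.35 ± 0.12 (SE) on the log2 scale, with a limma adjusted p of 8.07e-07. *Dio2*, the deiodinase that converts thyroxine into T3 inside the cell, read 917, 974, 1175 and 1209.8 CPM in wild type and 806, 761, 631, 627 and 621 CPM in *Thrb*-KO. The libraries did not overlap, but the change was near the fold limit. *Dio2* differed by -0.63 ± 0.12 (SE) on the log2 scale, with a limma adjusted p of 0.00265. Without wild-type replicate 3 or 4 the *Dio2* difference was -0.58 or -0.57 and no longer reached 1.5-fold, and the same held with the replicate number as a block (-0.57) and within replicates 1 and 2 (-0.27).

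*Slc7a8*, a large neutral amino acid transporter that also carries thyroid hormones, read 203, 206, 269 and 279 CPM in wild type and 97.3, 99.8, 102, 97.1 and 106 CPM in *Thrb*-KO. *Slc7a8* differed by -1.23 ± 0.10 (SE) on the log2 scale, with a limma adjusted p of 1.68e-07. The 5 *Thrb*-KO libraries spanned a range much narrower than their distance from wild type. *Ttr*, the thyroxine carrier transthyretin, was lower at 6.87 ± 0.750 (SD, n = 5) against 12.5 ± 4.28 (SD, n = 4) CPM. *Ttr* differed by -0.73 ± 0.20 (SE) on the log2 scale, with a limma adjusted p of 0.0328. This call was lost without either of 2 wild-type libraries (log2 difference -0.61 without replicate 3, -0.58 without replicate 4) and without 4 of the 5 *Thrb*-KO libraries, each taken singly (-0.73 to -0.70). It was also lost within replicates 1 and 2 (-0.39, limma adjusted p = 0.0783). The same held with a pseudocount of 0.25 (limma adjusted p = 0.0564) and without a filter on low values (0.0515). Of 15 listed genes of thyroid hormone metabolism and transport 8 were tested, 3 were called lower and 5 were not called. Of all genes tested 2.01% were called lower. The median log2 difference of the 8 genes was -0.40, beside 0.03 for all genes tested.

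None of the 7 listed pituitary hormone genes was called by limma, edgeR or DESeq2, 2 had an unadjusted limma p under 0.05, and all 7 had overlapping groups. Of all genes tested, limma called 3.02%, and 14.3% had groups without overlap. *Tshb* read 3218, 2902, 6462 and 5679 CPM in wild type and 3227, 3212, 3547, 4461 and 4832 CPM in *Thrb*-KO. *Tshb* differed by -0.18 ± 0.48 (SE) on the log2 scale, with a limma adjusted p of 0.895. Its wild-type libraries differed more between library sets than the genotypes did, and the sign of the difference turned within replicates 1 and 2 (log2 difference 0.08). *Cga*, the subunit shared by TSH and the gonadotropins, read 6393, 5973, 11009.7 and 9097 CPM in wild type and 5730.1, 6269, 5161, 6761 and 6075 CPM in *Thrb*-KO. *Cga* differed by -0.40 ± 0.16 (SE) on the log2 scale, with a limma adjusted p of 0.163. With the library set as a term in the fit *Cga* passed the adjusted p (-0.42, limma adjusted p = 0.0348) but fell short of 1.5-fold. Within replicates 3 to 5 *Cga* was called lower in *Thrb*-KO (log2 difference -0.75, limma adjusted p = 0.0106), and so was *Prl*, which encodes prolactin (-0.87, limma adjusted p = 0.0421). *Gh*, which encodes growth hormone, averaged 55828 ± 7979.7 (SD, n = 4) CPM in wild type and 66425 ± 7954 (SD, n = 5) CPM in *Thrb*-KO. *Gh* differed by 0.25 ± 0.20 (SE) on the log2 scale, with a limma adjusted p of 0.582. The log2 differences of *Lhb*, *Fshb* and *Pomc* were 0.03, 0.13 and -0.55, with limma adjusted p of 0.94, 0.723 and 0.269. With T3 the TSH subunit genes were lower in both genotypes. *Tshb* averaged 203 CPM in wild type and 136 CPM in *Thrb*-KO there, and *Cga* 1355 and 1380 CPM.

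Genes that process and package peptide hormones moved in both directions. Of 28 listed granule and exocytosis genes, all tested, 5 fell (17.9%, beside 2.01% of all genes tested) and 2 rose (7.14%, beside 1.01%), with a median log2 difference of 0.02. *Pcsk1*, the prohormone convertase PC1/3, read 598, 664, 784 and 744 CPM in wild type and 251, 222, 269, 287 and 323 CPM in *Thrb*-KO. *Pcsk1* differed by -1.37 ± 0.10 (SE) on the log2 scale, with a limma adjusted p of 1.05e-07. The highest *Thrb*-KO library lay far below the lowest wild-type library. *Pam*, which amidates peptide C-termini, read 1035, 989, 1223 and 1253 CPM in wild type and 669, 732, 675, 695 and 741 CPM in *Thrb*-KO. *Pam* differed by -0.67 ± 0.08 (SE) on the log2 scale, with a limma adjusted p of 3.04e-05. *Syt1*, the calcium sensor of vesicle fusion, averaged 493 ± 40.2 (SD, n = 4) against 312 ± 8.76 (SD, n = 5) CPM. *Syt1* differed by -0.65 ± 0.10 (SE) on the log2 scale, with a limma adjusted p of 0.000407. The convertase *Pcsk2* (-0.68, limma adjusted p = 0.0106) and the granule peptide precursor *Vgf* (-0.84, limma adjusted p = 0.0158) were also lower, though the *Pcsk2* groups overlapped through *Thrb*-KO replicate 5 at 344 CPM. Both calls failed the adjusted p when 1 library was left out, *Pcsk2* at -0.57 (limma adjusted p = 0.0542) without wild-type replicate 4 and *Vgf* at -0.74 (0.0622) without wild-type replicate 1, and both were made within each library set on its own. Within replicates 1 and 2 *Pam* stood at -0.53 and *Syt1* at -0.52, short of 1.5-fold.

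The 2 granule genes that rose bind Rab proteins on secretory vesicles. *Rph3a*, which encodes rabphilin, read 9.96, 10.9, 11.2 and 10.6 CPM in wild type and 21.4, 21.4, 26.02, 25.7 and 22.4 CPM in *Thrb*-KO. *Rph3a* differed by 1.06 ± 0.12 (SE) on the log2 scale, with a limma adjusted p of 7.75e-06. *Sytl4*, which encodes granuphilin, read 109.9, 119.9, 109 and 116 CPM and 162, 175, 187, 198 and 192 CPM. *Sytl4* differed by 0.68 ± 0.08 (SE) on the log2 scale, with a limma adjusted p of 1.44e-05. In both genes every *Thrb*-KO library lay above every wild-type library. Within replicates 1 and 2 *Sytl4* stood at 0.55, short of 1.5-fold. *Chgb*, the abundant granule protein chromogranin B, averaged 17296 ± 6215 (SD, n = 4) CPM in wild type and 11191 ± 753 (SD, n = 5) CPM in *Thrb*-KO and was not called (log2 difference -0.56, limma adjusted p = 0.104).

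A group of genes with large decreases was high in hypothyroid wild type and low in the other 3 groups. *Hs6st2*, a sulfotransferase that modifies heparan sulfate chains, read 35.96, 36.6, 56.04 and 68.3 CPM in hypothyroid wild type and 5.78, 6.38, 5.52, 6.67 and 6.65 CPM in hypothyroid *Thrb*-KO. *Hs6st2* differed by -2.75 ± 0.17 (SE) on the log2 scale, with a limma adjusted p of 1.41e-08. With T3 both genotypes were low, at 7.09 CPM in wild type and 5.50 CPM in *Thrb*-KO. *Creb3l1*, a membrane-bound transcription factor that is cleaved and released to the nucleus, read 156, 134, 195 and 193 CPM and 28.02, 26.7, 24.6, 25.3 and 33.9 CPM. *Creb3l1* differed by -2.56 ± 0.12 (SE) on the log2 scale, with a limma adjusted p of 3.45e-10. Its means with T3 were 17.8 CPM in wild type and 21.5 CPM in *Thrb*-KO, and the difference between the 2 genotype effects passed the test (interaction, limma adjusted p = 1e-08). *Cd24a*, a small surface glycoprotein, read 153, 179, 144 and 178 CPM and 50.6, 43.4, 34.8, 41.2 and 42.5 CPM. *Cd24a* differed by -1.92 ± 0.12 (SE) on the log2 scale, with a limma adjusted p of 1.41e-08. In each of these 3 genes every *Thrb*-KO library was below every wild-type library, as the choice of leading genes required.

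The same pattern held for *Liph*, a phospholipase that makes lysophosphatidic acid, at 15.6, 13.3, 16.1 and 14.9 CPM in hypothyroid wild type and 2.29, 2.32, 2.17, 2.23 and 2.75 CPM in hypothyroid *Thrb*-KO. *Liph* differed by -2.25 ± 0.14 (SE) on the log2 scale, with a limma adjusted p of 1.49e-08. *Atp2a3*, the calcium pump SERCA3 of the endoplasmic reticulum, read 56.5, 50.3, 68.02 and 73.4 CPM and 21.3, 19.8, 14.04, 13.1 and 20.6 CPM. *Atp2a3* differed by -1.76 ± 0.15 (SE) on the log2 scale, with a limma adjusted p of 4.09e-07. *Il34*, a cytokine that binds the macrophage receptor CSF1R, read 11.4, 10.8, 16.9 and 17.2 CPM and 3.31, 2.72, 2.62, 2.76 and 3.93 CPM. *Il34* differed by -1.87 ± 0.14 (SE) on the log2 scale, with a limma adjusted p of 1.14e-07. All 3 were low in both hyperthyroid groups, with means of 2.40 and 1.86 CPM for *Liph*, 14.3 and 13.5 CPM for *Atp2a3*, and 1.68 and 1.47 CPM for *Il34*, and their interactions passed the test (limma adjusted p = 5.62e-06, 5.26e-05 and 2.04e-05). *Fxyd5*, a modulator of the sodium pump, and *Cgref1* completed the group. *Fxyd5* fell from 33.8 ± 10.4 (SD, n = 4) to 5.87 ± 1.42 (SD, n = 5) CPM (log2 difference -2.32, limma adjusted p = 3.96e-06). *Cgref1* fell from 32.5 ± 15.3 (SD, n = 4) to 7.04 ± 1.62 (SD, n = 5) CPM (log2 difference -1.96, limma adjusted p = 0.000198), with wild-type libraries that ranged from 17.8 to 47.7 CPM.

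Another group fell in *Thrb*-KO whether T3 was low or high. *Vdr*, the vitamin D receptor (chromosome 15, 97684856 to 97741061, minus strand), read 15.9, 16.03, 14.99 and 16.5 CPM in hypothyroid wild type and 2.12, 2.81, 1.81, 2.37 and 1.12 CPM in hypothyroid *Thrb*-KO. *Vdr* differed by -2.49 ± 0.19 (SE) on the log2 scale, with a limma adjusted p of 1.05e-07. The wild-type libraries lay within a narrow range and all *Thrb*-KO libraries were far below it. With T3 the means were 43.1 CPM in wild type and 2.83 CPM in *Thrb*-KO, so that the difference was larger (log2 difference -3.48, limma adjusted p = 6.92e-10, interaction limma adjusted p = 0.0327). *Cacng5*, an auxiliary subunit of AMPA-type glutamate receptors, read 9.56, 8.05, 7.00 and 7.54 CPM and 2.05, 1.64, 1.59, 1.68 and 1.53 CPM. *Cacng5* differed by -1.74 ± 0.11 (SE) on the log2 scale, with a limma adjusted p of 1.68e-08. Under T3 the difference of *Cacng5* was -1.18. *Rbp4*, the retinol carrier, read 27.8, 23.96, 37.4 and 34.5 CPM and 5.43, 6.35, 6.01, 6.34 and 9.59 CPM. *Rbp4* differed by -2.05 ± 0.20 (SE) on the log2 scale, with a limma adjusted p of 2.29e-06. Under T3 that of *Rbp4* was -1.19.

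*Abcc8* and *Kcnj11*, which encode the sulfonylurea receptor and the pore of the ATP-sensitive potassium channel, lie side by side on the minus strand of chromosome 7 (53359893 to 53435403 and 53352533 to 53355607) and were singled out after their values were seen. *Abcc8* read 18.01, 18.8, 18.8 and 20.3 CPM in hypothyroid wild type and 4.55, 5.89, 6.82, 6.21 and 4.89 CPM in *Thrb*-KO. *Abcc8* differed by -1.59 ± 0.12 (SE) on the log2 scale, with a limma adjusted p of 1.14e-07. *Kcnj11* read 9.85, 9.97, 9.27 and 12.6 CPM and 3.83, 3.73, 4.00, 3.62 and 2.65 CPM. *Kcnj11* differed by -1.32 ± 0.13 (SE) on the log2 scale, with a limma adjusted p of 1.99e-06. Both subunits fell without overlap between the groups. Their log2 differences under T3 were -1.48 and -1.39, with interaction limma adjusted p of 0.933 and 0.973.

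The genotype difference turned over with T3 in 14 genes called lower and 6 called higher at low T3, which had the opposite call with T3. *Chrna6*, a nicotinic acetylcholine receptor subunit, read 67.98, 65.4, 126 and 126 CPM in hypothyroid wild type and 20.2, 20.03, 40.02, 36.8 and 23.2 CPM in hypothyroid *Thrb*-KO. *Chrna6* differed by -1.73 ± 0.25 (SE) on the log2 scale, with a limma adjusted p of 0.000193. Its values were higher in replicates 3 and 4 than in the other libraries within both genotypes. The groups did not overlap, as the choice of leading genes required. With T3 the order was reversed, at a mean of 14.5 CPM in wild type and 42.9 CPM in *Thrb*-KO (log2 difference 1.49, limma adjusted p = 0.0005). *Kcnk10*, a two-pore potassium channel named here after its values were seen, stood at -1.55 at low T3 and 1.32 at high T3 (limma adjusted p = 5.26e-06 and 2.14e-05). *Trhr* and *Dio2* turned in the same way, at 0.69 and 2.18 under T3 (limma adjusted p = 0.000657 and 1.05e-09). In absolute level both were far lower with T3 in each genotype, *Dio2* at 36.9 CPM in wild type and 172 CPM in *Thrb*-KO, and *Trhr* at 2.88 and 5.24 CPM. The granule gene *Syt1*, lower in *Thrb*-KO at low T3, was called higher with T3 (0.59, limma adjusted p = 0.000611). *Pcsk1* and *Pam* also stood above 0 with T3, at 0.36 and 0.28 (limma adjusted p = 0.0239 and 0.0325), short of 1.5-fold.

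**Figure D2:**
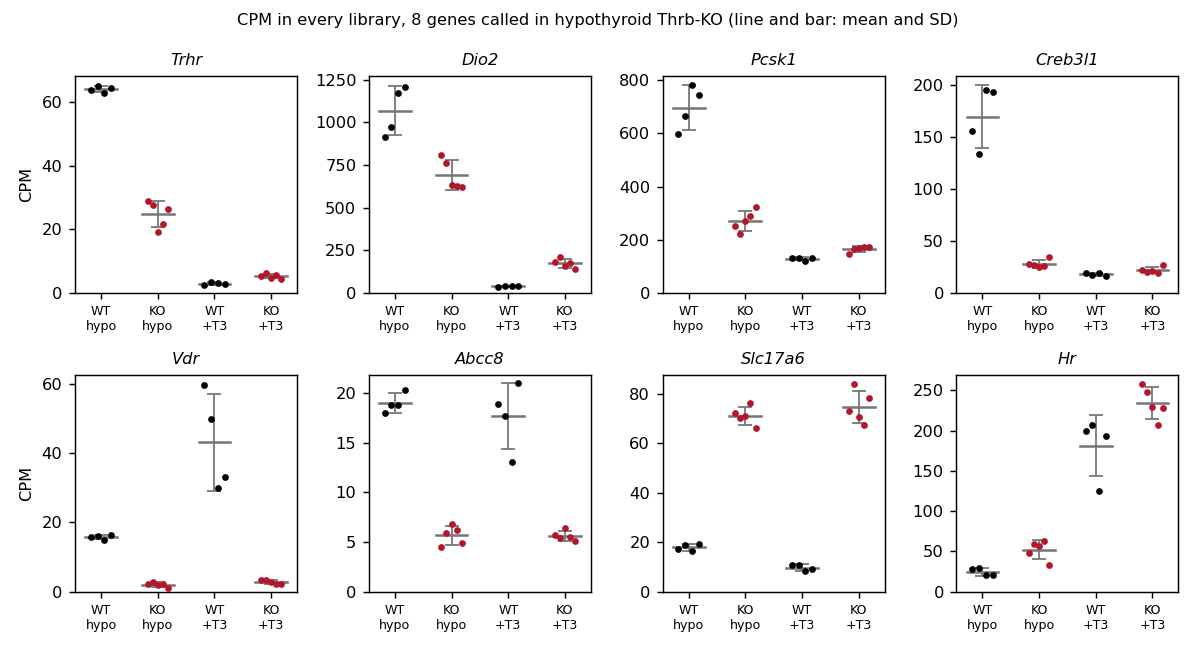
CPM in every library for 8 genes called in hypothyroid Thrb-KO, in wild type (WT, black, n = 4) and Thrb-KO (KO, red, n = 5), hypothyroid (hypo) or hyperthyroid (+T3), with the mean and SD in grey and linear axes from 0. Trhr, Dio2, Pcsk1 and Creb3l1 are high in hypothyroid wild type and low with T3, Vdr and Abcc8 are low in Thrb-KO in both states, Slc17a6 is high in Thrb-KO in both states, and Hr is higher in Thrb-KO at low T3.

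Among the genes that rose, *Gucy2f* showed the largest difference. It encodes a guanylate cyclase known from photoreceptors, and it read 3.08, 3.18, 2.82 and 2.83 CPM in hypothyroid wild type and 47.1, 42.8, 43.02, 41.5 and 25.8 CPM in hypothyroid *Thrb*-KO. *Gucy2f* differed by 3.34 ± 0.22 (SE) on the log2 scale, with a limma adjusted p of 1.72e-08. *Thrb*-KO replicate 5 was the lowest of its group and still many times the wild-type level. *Slc17a6*, the vesicular glutamate transporter VGLUT2, read 17.2, 18.9, 16.5 and 19.3 CPM and 72.2, 70.2, 70.96, 76.2 and 66.00 CPM. *Slc17a6* differed by 1.93 ± 0.09 (SE) on the log2 scale, with a limma adjusted p of 3.45e-10. With T3 the difference was larger (log2 difference 2.81, interaction limma adjusted p = 0.000225), and wild type averaged 9.78 CPM there and *Thrb*-KO 74.6 CPM. *Grap2*, an adaptor protein of immune receptor signalling, read 2.08, 1.95, 1.70 and 1.16 CPM and 8.41, 9.29, 11.2, 9.24 and 8.60 CPM. *Grap2* differed by 1.93 ± 0.13 (SE) on the log2 scale, with a limma adjusted p of 4.83e-08.

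*Col24a1* and *Col27a1*, both fibrillar collagens, rose at low T3 and parted under T3. *Col24a1* read 4.68, 6.21, 6.31 and 8.30 CPM in hypothyroid wild type and 14.5, 18.1, 30.8, 27.97 and 18.99 CPM in hypothyroid *Thrb*-KO. *Col24a1* differed by 1.61 ± 0.23 (SE) on the log2 scale, with a limma adjusted p of 0.000159. With T3 the *Col24a1* difference was -1.996 (limma adjusted p = 8.18e-06), at 44.5 CPM in wild type and 9.84 CPM in *Thrb*-KO. *Col27a1* read 61.04, 54.3, 59.6 and 62.9 CPM and 145, 172, 178, 157 and 163 CPM. *Col27a1* differed by 1.44 ± 0.16 (SE) on the log2 scale, with a limma adjusted p of 1.09e-05. Under T3 *Col27a1* stood at 0.64. Other leading genes were *Vwa5b1* (1.57), the sodium channel gene *Scn11a* (1.56), the neuronal membrane protein gene *Nrsn2* (1.48), the engulfment receptor gene *Megf10* (1.28), *Ptchd1* (1.22), the protocadherin gene *Pcdh20* (1.22) and *Dnaic2* (1.26), an intermediate chain of ciliary dynein, all log2 differences. *Megf10* had a limma adjusted p of 0.019, which became 0.0804 without wild-type replicate 3 (log2 difference 1.096) and 0.0926 without wild-type replicate 4 (1.03), and it was called within each library set on its own (0.86 and 1.77).

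Regulators of transcription were called in both directions, with *Creb3l1* and *Vdr*, given above, among those that fell. *Hr*, the corepressor Hairless and a known T3 target in brain, read 28.1, 29.2, 20.6 and 20.7 CPM in wild type and 48.1, 59.6, 56.5, 62.8 and 33.3 CPM in *Thrb*-KO. *Hr* differed by 1.03 ± 0.18 (SE) on the log2 scale, with a limma adjusted p of 0.000925. Its level in hypothyroid *Thrb*-KO remained below both hyperthyroid groups, which averaged 181 CPM in wild type and 234 CPM in *Thrb*-KO. *Neurod1*, a basic helix-loop-helix factor, read 5.91, 5.71, 4.94 and 5.91 CPM and 12.7, 11.4, 10.6, 13.05 and 14.5 CPM. *Neurod1* differed by 1.02 ± 0.10 (SE) on the log2 scale, with a limma adjusted p of 2.29e-06. *Nfil3*, a basic leucine zipper repressor of clock output genes, fell instead, from 24.6, 29.2, 34.5 and 36.1 CPM in wild type to 15.3, 13.8, 17.3, 17.8 and 15.3 CPM in *Thrb*-KO. *Nfil3* differed by -0.91 ± 0.14 (SE) on the log2 scale, with a limma adjusted p of 0.000401.

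For 4 named called genes, the TRβ-HAB peak with most reads within 20 kb of the gene held a DR4 that matched 10 or more of the 12 bases of AGGTCA and its repeat, and these sites are printed because they are where the binding data bear on named genes of this comparison. TRβ-HAB peaks come from chromatin affinity purification of tagged TRβ in untreated pituitary, so they were not measured in the hypothyroid animals. Each line gives 30 bases of mm9 on the strand of the repeat, 5′ to 3′, with the 2 hexamers in capitals.
*Hr*, chr14:70951951-70951980, minus strand: cgggtggAGGGCAtctgAGGACAtcccctc
*Grap2*, chr15:80489617-80489646, plus strand: tttatgcAGGTCAtctgTGGCCAtcccatt
*Dnaic2*, chr11:114602127-114602156, minus strand: gtcccacAGGTCAactcAGGTCGtcaggct
*Nfil3*, chr13:53070836-53070865, plus strand: cctgtagGGGTCAgaagAGGGCActggagc

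The *Hr* site lay in a peak of 154 TRβ-HAB reads and 40 control reads whose centre was 118 bases upstream of the annotated start of the gene, and the repeat itself was outside annotated exons. *Grap2* had its repeat in a peak of 38 TRβ-HAB and 4 control reads, between genes and 35840 bases downstream of its start. In *Dnaic2* it was intronic, in a peak of 15 reads with 0 control reads, and matched 11 of 12 bases. The *Nfil3* repeat was intronic as well, in a peak of 28 TRβ-HAB reads and 1 control read. The motif searched was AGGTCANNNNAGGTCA on both strands with up to 2 mismatches, and 20.9% of all 8051 TRβ-HAB peaks held it. Among peaks of the same length it was found in 46.2% (900 bases, 13 peaks, *Hr*), 29.6% (450 bases, *Grap2*), 20.3% (300 bases, *Dnaic2*) and 19.1% (250 bases, *Nfil3*). A match of this kind is a description of the sequence and does not show that the receptor sits on it.

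Most genes of the other lists were not called. Over the 16 lists, 307 of 372 genes were tested, and 8 were called higher and 14 lower, beside 3.02% called of all genes tested. Single calls in a list of 19 or more genes are not read as results about that list. Among 12 tested receptors for releasing and inhibiting hormones *Trhr* alone was called, and their median log2 difference was 0.25 beside 0.03 for all genes. In the list of T3 targets known from other tissues, 1 of 19 tested genes was called (*Hr*). Among 22 tested lineage transcription factors *Neurod1* was called, and among those that passed the adjusted p without a 1.5-fold change *Lhx3* (0.57, limma adjusted p = 0.0166) and *Six6* (0.28, 0.0426) stood higher and *Isl1* (-0.46, 0.0287) stood lower. The median of that list was 0.28. Of 19 tested circadian clock genes *Nfil3* was called, with a list median of 0.07.

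Lipid synthesis genes held 1 call among 22 tested, *Scd1*, the stearoyl-CoA desaturase, which rose from 30.6 ± 7.45 (SD, n = 4) to 51.9 ± 4.16 (SD, n = 5) CPM. *Scd1* differed by 0.77 ± 0.15 (SE) on the log2 scale, with a limma adjusted p of 0.00331. The *Scd1* difference was 0.40 within replicates 1 and 2, short of 1.5-fold, and 1.12 within replicates 3 to 5. Of 35 tested ion channel genes, *Cacna1h* (a T-type calcium channel, log2 difference 0.67) and *Scn9a* (a sodium channel, 0.60) rose, with limma adjusted p of 0.0113 and 0.0153. Both calls were lost when single libraries were left out, *Cacna1h* without wild-type replicate 4 (limma adjusted p = 0.0511) and *Scn9a* without wild-type replicate 3 (0.0685), while *Scn9a* fell just short of 1.5-fold without *Thrb*-KO replicate 1, 2 or 5 (log2 difference 0.58). Within replicates 1 and 2 they stood at 0.51 and 0.52, short of 1.5-fold. In the list of growth factor and BMP signalling, with 29 tested, *Chrd*, which encodes the BMP antagonist chordin, fell from 40.3 ± 4.02 (SD, n = 4) to 24.5 ± 1.17 (SD, n = 5) CPM. *Chrd* differed by -0.69 ± 0.13 (SE) on the log2 scale, with a limma adjusted p of 0.00164. *Nmb*, which encodes the local peptide neuromedin B, fell from 7.14 ± 3.31 (SD, n = 4) to 2.41 ± 0.473 (SD, n = 5) CPM. *Nmb* differed by -1.17 ± 0.23 (SE) on the log2 scale, with a limma adjusted p of 0.00282. It was 1 of 4 tested neuropeptides. Extracellular matrix genes held 2 calls among 25 tested, *Sparc* (-0.64, limma adjusted p = 5.76e-06) and *Col1a2* (-0.64, limma adjusted p = 0.00932), both lower, and *Col1a2* fell short of 1.5-fold without wild-type replicate 1 (-0.57) and was not called within replicates 3 to 5 (-0.46, limma adjusted p = 0.108).

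No gene was called among 20 tested cell cycle genes, 25 genes of endoplasmic reticulum folding and stress, or 18 immediate early genes by limma, and in none of these lists did a gene pass the adjusted p at any fold. Of all genes tested 3.02% were called, so a list of this length can hold no call. The absence of calls is not read as a result about these lists. At an unadjusted limma p under 0.05 stood 1 cell cycle gene, 3 genes of the endoplasmic reticulum list and 3 immediate early genes. Neither edgeR nor DESeq2 called a gene of the first 2 lists, and DESeq2 called 1 immediate early gene where edgeR called 0. Immediate early genes varied widely within groups. *Fos* averaged 23.9 ± 15.1 (SD, n = 4) CPM in wild type and 58.1 ± 62.7 (SD, n = 5) CPM in *Thrb*-KO, with a limma adjusted p of 0.617.

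**Figure D3:**
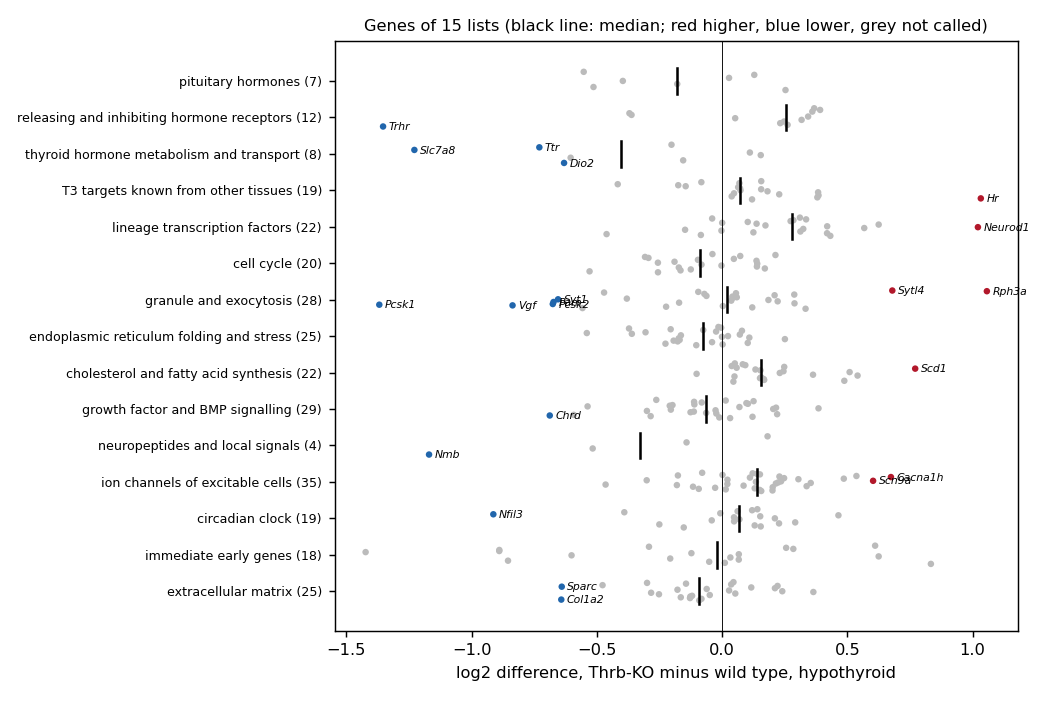
Log2 difference of Thrb-KO minus wild type in hypothyroid pituitary for the tested genes of 15 of the 16 lists, with the number tested in brackets, called genes named in red (higher) or blue (lower), genes not called in grey and the list median as a black line. Called genes stand at the ends of lists whose medians lie between -0.40 and 0.28.

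Markers of macrophages and other leukocytes moved with the genotype. Of 9 listed markers 7 were tested, and 5 were called lower in hypothyroid *Thrb*-KO, beside 2.01% of all genes tested. They were the complement genes *C1qa* (-0.84), *C1qb* (-0.83) and *C1qc* (-0.81), the chemokine receptor gene *Cx3cr1* (-0.65) and *Csf1r* (-0.77), the receptor for *Il34*, all log2 differences. The tested markers that were not called, *Cd68* and *Ptprc*, stood at -0.46 (limma adjusted p = 0.0265) and -0.50 (0.0788). *Csf1r* read 38.5, 39.4, 44.8 and 42.5 CPM in wild type and 25.6, 24.5, 24.7, 22.1 and 22.3 CPM in *Thrb*-KO. *Csf1r* differed by -0.77 ± 0.13 (SE) on the log2 scale, with a limma adjusted p of 0.000759. The summed level of the 9 markers was 133.6 to 156.1 CPM in hypothyroid wild type and 76.4 to 93.9 CPM in hypothyroid *Thrb*-KO, without overlap, and none of the 9 stood at 0 in a hypothyroid library. With T3 the sums overlapped, at 98.8 to 167.5 CPM in wild type and 80.2 to 103 CPM in *Thrb*-KO. There *C1qa* stood at -0.62 (limma adjusted p = 0.0205) and *C1qc* at -0.46 (0.0371). *C1qb* (-0.45, 0.0814), *Cx3cr1* (-0.33, 0.0778) and *Csf1r* (-0.25, 0.243) did not pass the adjusted p. For none of the 5 did the interaction pass the test (limma adjusted p = 0.123 to 0.841), so a difference between low and high T3 was not shown. The part of these cells in the differences of other genes was not tested.

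Marker sums of most other cell types overlapped between the hypothyroid genotypes. Summed endothelial markers ranged from 216 to 333 CPM in wild type and from 210 to 306 CPM in *Thrb*-KO, stem and folliculostellate markers from 198 to 290 and from 206 to 287 CPM, and gonadotroph markers from 1005 to 1140 and from 983 to 1390 CPM. Melanotroph markers did not overlap, at 412 to 580 CPM against 266 to 406 CPM. *Pcsk2* made up most of that sum, and *Pax7*, which specifies melanotrophs, averaged 34.4 ± 3.87 (SD, n = 4) CPM in wild type and 34.2 ± 2.88 (SD, n = 5) CPM in *Thrb*-KO (log2 difference 0.00, limma adjusted p = 0.992). Of 3 lactotroph markers *Angpt1* was called higher in *Thrb*-KO (0.79, limma adjusted p = 0.002), while *Prl* was not called.

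Requiring more than 1 CPM in all 18 libraries left out genes that were nearly absent in one group. With the limit set at more than 1 CPM in at least 4 libraries, 14472 genes were tested, 171 were called higher (1.18%) and 342 lower (2.36%), 3.54% in all. The 1327 genes added by this limit include ones that passed only through the group in which they were high, so their calls, 37 higher and 74 lower, are a description. Among those named here, chosen after their values were seen, the decreases were again in genes high in hypothyroid wild type alone. *Tyrp1*, an enzyme known from melanin synthesis, read 28.5, 28.7, 47.7 and 52.3 CPM in hypothyroid wild type and 0.957, 0.785, 0.814, 0.920 and 3.17 CPM in hypothyroid *Thrb*-KO. *Th*, tyrosine hydroxylase, the first enzyme of catecholamine synthesis, read 16.1, 18.2, 28.6 and 24.5 CPM and 1.64, 1.51, 1.95, 2.00 and 1.92 CPM. *Ptpn5*, a neuronal tyrosine phosphatase, read 22.3, 22.04, 21.4 and 18.96 CPM and 1.26, 0.949, 1.25, 1.48 and 3.23 CPM. In all 3 genes the wild-type libraries were several times the highest *Thrb*-KO library, and the hyperthyroid means of both genotypes lay below 1 CPM.

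The annexin gene *Anxa10* (22.05 ± 3.77 (SD, n = 4) against 0.397 ± 0.256 (SD, n = 5) CPM) and the vitamin D-binding protein gene *Gc* (13.2 ± 6.59 (SD, n = 4) against 0.820 ± 0.604 (SD, n = 5) CPM) followed the same course, as did the peptide genes *Rln3* (18.1 ± 10.9 (SD, n = 4) against 0.238 ± 0.0617 (SD, n = 5) CPM) and *Cartpt* (16.8 ± 13.5 (SD, n = 4) against 0.759 ± 0.137 (SD, n = 5) CPM), whose wild-type libraries varied by several fold. In the other direction *F5*, which encodes coagulation factor V, rose from 0.428, 0.554, 0.551 and 0.218 CPM to 6.36, 4.81, 5.23, 6.34 and 7.39 CPM, and *Cnr1*, the cannabinoid receptor CB1, from 3.11, 3.09, 1.63 and 2.39 CPM to 17.5, 18.4, 12.2, 12.5 and 20.2 CPM. Groups without overlap were a condition for naming genes of the wider limit. *Zfp804a* averaged 0.300 ± 0.171 (SD, n = 4) against 3.14 ± 0.733 (SD, n = 5) CPM, *Tgm6* 1.75 ± 0.211 (SD, n = 4) against 7.47 ± 1.04 (SD, n = 5) CPM and *Trank1* 0.989 ± 0.219 (SD, n = 4) against 5.04 ± 0.646 (SD, n = 5) CPM. *Tll2* averaged 0.434 ± 0.109 (SD, n = 4) against 3.23 ± 0.831 (SD, n = 5) CPM, and the chemokine gene *Ccl3* 0.700 ± 0.262 (SD, n = 4) against 3.53 ± 1.26 (SD, n = 5) CPM. With T3 both had means under 1 CPM in each genotype.

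How the same genes stood when T3 was high was read in the 9 hyperthyroid libraries. Their means do not enter the hypothyroid contrast, but they share its filter and its estimate of the spread. There 334 genes were called higher in *Thrb*-KO (2.54%) and 305 lower (2.32%), 4.86% in all. Of the 133 genes higher at low T3, 56 were also higher with T3 (42.1% of the one list and 16.8% of the other), 6 were lower and 71 were not called. Of the 264 genes lower at low T3, 52 were also lower with T3 (19.7% and 17.0%), 14 were higher and 198 were not called. The median log2 difference under T3 was 0.44 for the former and -0.25 for the latter.

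The difference between the genotype effects in the 2 states was tested by the interaction term, which was called for 43 of the 133 higher genes (32.3%) and 125 of the 264 lower genes (47.3%), beside 5.46% of all genes tested. The hypothyroid difference that chose these genes is part of the interaction, so the shares describe the lists and do not test them. Of the 198 lower genes that were not called with T3, 103 had an interaction and 95 had none that passed the test. Of the 71 higher genes not called with T3, 31 had an interaction and 40 had none that passed. A gene called at low T3 and not at high T3 is therefore not by itself shown to differ between them.

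**Figure D4:**
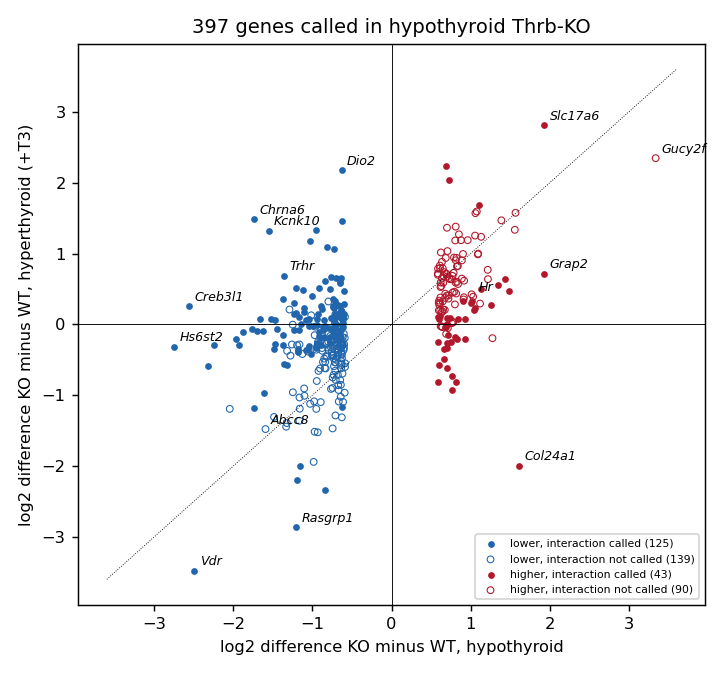
Log2 difference of Thrb-KO minus wild type in hypothyroid (horizontal) and hyperthyroid (vertical) pituitary for the 397 genes called in the former, blue lower and red higher, filled where the interaction was called and open where it was not. Creb3l1 and Hs6st2 lie near 0 on the vertical axis, Abcc8 lies near the dotted line of equal difference, Vdr lies at -2.49 and -3.48, and Dio2 and Chrna6 stand above 0 with T3.

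Genes that rose in *Thrb*-KO had TRβ-HAB peaks of untreated pituitary nearby more often than genes that fell. With gene bodies extended by 20 kb on each side, a peak was found for 91 of 131 genes called higher that had coordinates (69.5%, 95% Wilson interval 61.1 to 76.7%), 93 of 264 called lower (35.2%, 29.7 to 41.2%) and 5156 of 12545 not called (41.1%, 40.2 to 42.0%). Called higher genes were longer, with a median of 51169 bases against 28506 for called lower and 24670 for the rest, and a longer gene has more room for a peak. Counted within 20 kb of the transcription start alone, a setting chosen after seeing these lengths, the shares were 49.6% (41.2 to 58.1%), 23.1% (18.4 to 28.6%) and 28.4% (27.6 to 29.2%). The interval of the genes called higher lay above the other intervals in both counts. These intervals cover counting error only, and neighbouring genes can share a peak.

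T3-regulated ATAC peaks, regions whose accessibility differed between hypothyroid and hyperthyroid nuclei of *Thrb*-expressing anterior pituitary cells, were also found most often near genes called higher. Over the extended gene bodies they were found for 24.4% of genes called higher (17.9 to 32.4%), 8.33% of genes called lower (5.57 to 12.3%) and 7.60% of genes not called (7.15 to 8.07%). From the transcription start the shares were 9.92% (5.89 to 16.2%), 4.55% (2.62 to 7.78%) and 3.08% (2.80 to 3.40%). The intervals of genes called higher and called lower overlapped in the count from the start, and genes called lower did not stand apart from genes not called in either count. The deposited list does not give the direction in which accessibility changed.

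Among genes that fell, those that also fell under T3 had a TRβ-HAB peak within 20 kb in 30 of 52 cases (57.7%, 44.2 to 70.1%), and those not called under T3 in 59 of 198 cases (29.8%, 23.9 to 36.5%). Among genes that rose, the corresponding shares were 29 of 55 (52.7%, 39.8 to 65.3%) and 56 of 70 (80.0%, 69.2 to 87.7%). Of the 12 leading genes in each direction, 8 of those higher and 4 of those lower had such a peak. *Col27a1* had 5 peaks and *Vwa5b1* had 3, whereas *Gucy2f*, *Slc17a6*, *Vdr*, *Hs6st2*, *Trhr* and *Dio2* had no peak of the list within 20 kb. DR4 matches were found in 24.7% (19.5 to 30.7%) of the 227 peaks near genes called higher and 15.7% (10.5 to 22.8%) of the 134 peaks near genes called lower, with overlapping intervals.

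**Figure D5:**
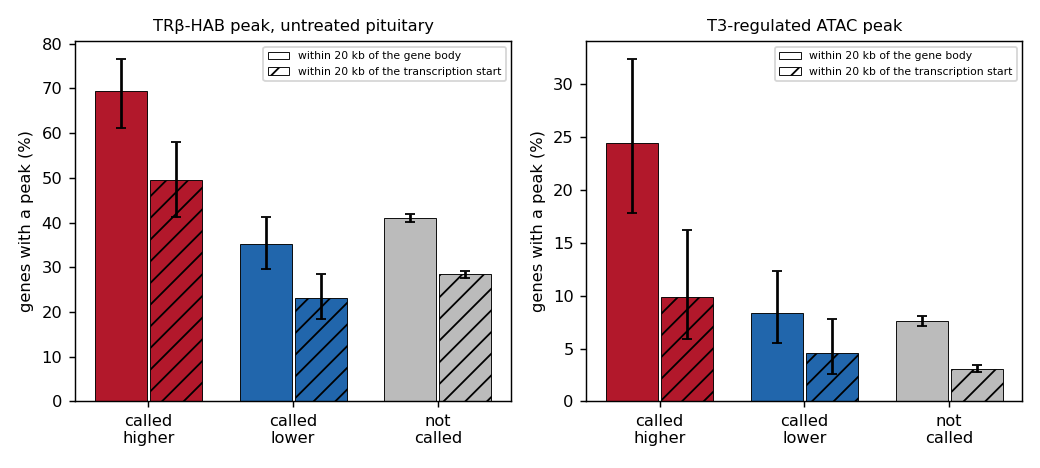
Share of genes called higher (red), called lower (blue) or not called (grey) in hypothyroid Thrb-KO with a TRβ-HAB peak of untreated pituitary (left) or a T3-regulated ATAC peak (right) no farther than 20 kb from the gene body (plain bars) or of the transcription start (hatched bars), with 95% Wilson intervals. For TRβ-HAB peaks the genes called higher stand at 69.5% and 49.6%, above the other genes in both counts.

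Mice with a targeted gene can carry alleles of the embryonic stem cell strain around it, so the calls were also placed relative to *Thrb*. Within 10 Mb of *Thrb* 2 of 75 tested genes were called (2.67%, 95% Wilson interval 0.734 to 9.21%), on the rest of chromosome 14 11 of 358 (3.07%, 1.72 to 5.42%) and on other chromosomes 382 of 12506 (3.05%, 2.77 to 3.37%). The share near *Thrb* did not stand out at this number of genes. The 2 genes were *Rpl15*, which encodes a protein of the large ribosomal subunit and begins 0.230 Mb beyond the end of *Thrb* (19100337 to 19103905, minus strand), and *Synpr*, a synaptic vesicle protein gene 4.05 Mb away, both named because they were the ones counted. *Rpl15* read 14.04, 14.1, 15.7 and 14.9 CPM in hypothyroid wild type and 23.6, 23.9, 27.3, 34.2 and 32.8 CPM in hypothyroid *Thrb*-KO. *Rpl15* differed by 0.89 ± 0.18 (SE) on the log2 scale, with a limma adjusted p of 0.00344. Under T3 it stood at 0.90. Reads of this gene can be shared with near-identical copies elsewhere in the genome, so its value is uncertain. *Synpr* read 24.7, 24.8, 31.9 and 32.7 CPM and 11.5, 10.1, 15.96, 17.3 and 17.5 CPM. *Synpr* differed by -0.95 ± 0.19 (SE) on the log2 scale, with a limma adjusted p of 0.00373.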

How the data were processed

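RNA was measured in 18 libraries from pools of 3 frozen pituitaries. The authors mapped single-end reads to mm9 with BBMap, counted them per RefSeq transcript and deposited CPM values, which are not divided by transcript length. Values were whole multiples of 1 read (100% within 0.01 reads), so the read count of each transcript could be recovered. Reads shared by transcripts can be counted for each, as *Hba-a1* and *Hba-a2* had the same values in every library. Protocols did not mark strand, so overlapping and antisense genes share reads. Replicates are pools of animals of 1 group.

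One transcript was kept per symbol. Genes above 1 CPM in all 18 libraries were tested on log2(CPM + 1) with limma 3.58.1 (R 4.3.3), fitted over the 4 groups with a trended prior and Benjamini-Hochberg adjustment. Calls needed adjusted p under 0.05 and 1.5-fold. Alternatives used edgeR 4.0.16 and DESeq2 1.42.0 on recovered reads, other filters, pseudocounts and scalings, single library sets, and left-out libraries. The script was tested on simulated data. Members, gene lists and tests were chosen with earlier results of these data known. Named genes were the 12 largest called changes in each direction without overlap between the groups, the called members of the lists, the hormone genes and T3 receptors. Chosen after seeing the data were the 7 largest further called changes in each direction with the wider limit, also without overlap between the groups. Other genes are marked in the text as chosen after their values were seen.

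Same-numbered libraries deviated together (correlation 0.458 to 0.629 in hypothyroid and 0.257 to 0.691 in hyperthyroid pairs), as did libraries of the same set with other numbers (0.301 to 0.676 in hypothyroid pairs), so a fit with the number as a block was added. The labels do not say what a number marks.

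For TRβ-HAB peaks the authors merged the replicates and called peaks with SICER against BirA controls, and deposited read counts, p-values and a fold ratio for each peak. For T3-regulated ATAC peaks they deposited positions and an adjusted p-value from edgeR. A gene was near a peak if it lay within 20 kb and had mm9 coordinates, as 12940 tested genes did. Confidence intervals are Wilson and cover counting error only. Cerebral cortex peaks were not used here, and results for some genes are not reported here.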

Additional observations from a re-analysis of the deposited data

Results flagged for a closer look

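In 10 of the 138 gene and group combinations examined for a library far from the rest of its group, 1 library stood apart, where chance gives about 1 in 20. Thrb-KO replicate 5 was that library in 6 genes, namely *Liph* at 2.75 CPM, *Rbp4* at 9.59 CPM, *Tyrp1* at 3.17 CPM, *Ptpn5* at 3.23 CPM and *Gc* at 1.89 CPM, all the highest of the group, and *Gucy2f* at 25.8 CPM, the lowest. Each of these values lay on the side of the group that faces wild type. The others were *Cacng5* in Thrb-KO replicate 1 at 2.05 CPM, *Col1a2* in Thrb-KO replicate 3 at 115 CPM, *Trank1* in Thrb-KO replicate 4 at 3.91 CPM and *Anxa10* in wild-type replicate 3 at 27.7 CPM.

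Of the 55 named genes above 1 CPM in all 18 libraries, 29 had a genotype difference that itself differed between low and high T3, by the limma interaction test with adjusted p under 0.05. The values are the log2 difference at low T3 minus that at high T3, and for genes called at low T3 that contrast is part of the test. Negative values, a lower Thrb-KO level relative to wild type at low T3 than at high T3, were found for *Thrb* -1.26, *Hs6st2* -2.44, *Creb3l1* -2.82, *Fxyd5* -1.74, *Liph* -1.97, *Cgref1* -1.75, *Cd24a* -1.64, *Il34* -1.77, *Atp2a3* -1.69, *Cacng5* -0.561, *Chrna6* -3.22, *Slc17a6* -0.884, *Dio2* -2.81, *Nfil3* -0.752, *Nmb* -1.27, *Pam* -0.952, *Pcsk1* -1.73, *Slc7a8* -1.37, *Sparc* -0.557, *Syt1* -1.25, *Trhr* -2.04 and *Vgf* -1.46. Positive values were found for *Vdr* 0.988, *Grap2* 1.21, *Col24a1* 3.61, *Nrsn2* 1.01, *Col27a1* 0.802, *Dnaic2* 0.983 and *Neurod1* 0.69.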

How the results depend on the processing

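None of the named genes that were called changed sign under the alternatives tried. Of 1587 values of single named genes under alternatives, 1543 kept their sign and call, 31 lost the call, 2 gained it and 11 changed sign. Leaving out single hypothyroid libraries gave 109 to 155 genes called higher, 218 to 273 called lower, 45 to 57 also higher with T3 and 44 to 53 also lower, and without hyperthyroid wild-type replicate 3, a choice made after seeing the data, 145 and 295 were called. With the library set as a term 177 genes were called higher and 302 lower. With the replicate number as a block 182 genes were called higher and 310 lower, and apart from *Dio2* the pairing changed no call of a named gene.

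Counts moved by more than 1.5 times as follows, and the cause was not tested except where the construction gives it. DESeq2 on recovered reads called 418 genes lower, beside 389 with edgeR. Replicates 3 to 5 alone called 292 genes higher, 114 of them also with T3, and replicates 1 and 2 alone had 82 genes lower in both states. Without a fold limit 359 were higher and 542 lower, 156 and 118 of them also with T3.

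Sign changes were confined to differences near 0 that were not called. *Thrb* stood at -0.0543 in replicates 3 to 5. *Tshb* stood at 0.0752 in replicates 1 and 2, and at -0.3685 to 0.0164 on leaving out single libraries, above 0 without wild-type replicate 3. *Fshb* stood at -0.140 in replicates 1 and 2. *Lhb* stood at -0.00527 with edgeR, -0.000905 with DESeq2, -0.0476 in replicates 1 and 2, and -0.0689 to 0.0989 on leaving out single libraries, below 0 without wild-type replicate 3 or 4 or Thrb-KO replicate 2 or 5.

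Shares of genes near peaks moved with the distance. In the order higher, lower and all tested genes, TRβ-HAB shares were 63.4%, 25.4% and 30.2% within 5 kb, 84.0%, 66.3% and 70.8% within 100 kb, 49.6%, 23.1% and 28.5% from the transcription start, and 52.7%, 23.5% and 25.3% for peaks at or above the median fold. ATAC shares were 19.8%, 4.92% and 5.603% within 5 kb, 35.9%, 18.9% and 18.2% within 100 kb, and 9.92%, 4.55% and 3.18% from the start. Pools of 3 pituitaries, 4 or 5 per group, limit the precision of every value.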
